A study of Homo sapiens with 12 samples.

Results

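Abundant structured noncoding RNAs are short, folded RNAs that work as parts of RNA-protein machines and are not translated. Of 6 such genes considered (RN7SK, RN7SL1, RN7SL2, RMRP, RPPH1 and TERC), 4 were matched to a row of a table of 57820 genes by their Ensembl ID. RN7SL1 and RN7SL2, the genes of the 7SL RNA, had no row that the annotation used here ties to them and are not analysed here. The counts were made on an older version of the genome (hg19), so the table may hold these genes under IDs that carry no name here. The summed shares below leave them out. The 4 rows were read in 12 libraries of human leukaemia cells, from the lines JVM3, HG3 and MEC1. The labels class all of these as chronic lymphocytic leukaemia, in which mature B cells build up in the blood. In each line, cells with the U1 g.3A>C mutation were set against cells with wild-type U1, with 2 technical replicates per group, to ask what a changed U1 small nuclear RNA does to RNA in the cell. The labels do not say how the mutation was brought into the cells, or that the replicates came from separate cultures, so p-values within a line measure a spread that may be technical. Comparisons across lines rest on n = 3.

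U1 pairs with the start of introns during splicing. RN7SK encodes 7SK, which holds the kinase P-TEFb in an inactive particle and so restrains elongation by RNA polymerase II. RPPH1 encodes the catalytic RNA of RNase P, the enzyme that trims the 5' end of transfer RNA precursors. RMRP encodes the RNA of RNase MRP, a related enzyme of ribosomal RNA processing that shares most of its proteins with RNase P. TERC encodes the telomerase RNA, which carries the template for telomere repeats. RNA polymerase III makes 7SK, RPPH1 and RMRP, while RNA polymerase II makes TERC.

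Sequences are shown because they carry the parts by which these RNAs are known, and because the 2 enzyme RNAs are related in function. They are from GENCODE release 29 on GRCh38, written 5' to 3' as DNA. RN7SK lies on chromosome 6 (plus strand), and its first 120 bases are shown of 328. Capitals mark GATC, a short palindrome found 3 times, and GAUC repeats in this 5' stem are known to take part in binding HEXIM1. Of all annotated transcripts of that length or more, 26.5% held GATC at least once in their first 120 bases. At least 2 occurrences were held by 4.1%, and the share with 3 was not computed.
RN7SK: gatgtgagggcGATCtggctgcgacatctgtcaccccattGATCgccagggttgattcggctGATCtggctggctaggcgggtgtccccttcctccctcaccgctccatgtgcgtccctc
TERC lies on chromosome 3 (minus strand), and the first 120 bases are shown of a gene model of 541. Capitals mark CTAACCCTAAC, the template of telomerase, which 0.0295% of annotated transcripts hold on either strand.
TERC: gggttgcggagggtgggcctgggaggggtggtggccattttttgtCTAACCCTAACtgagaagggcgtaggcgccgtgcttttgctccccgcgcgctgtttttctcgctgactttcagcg
RMRP (chromosome 9, minus strand) is shown whole, with 268 bases, and RPPH1 (chromosome 14, minus strand) as the first 300 bases of 333. Capitals mark the runs of at least 8 bases that the 2 RNAs share, of which there was 1, with 9 bases. It starts at base 146 of RPPH1 and base 243 of RMRP. How often unrelated RNAs share such a run was not tested.
RPPH1: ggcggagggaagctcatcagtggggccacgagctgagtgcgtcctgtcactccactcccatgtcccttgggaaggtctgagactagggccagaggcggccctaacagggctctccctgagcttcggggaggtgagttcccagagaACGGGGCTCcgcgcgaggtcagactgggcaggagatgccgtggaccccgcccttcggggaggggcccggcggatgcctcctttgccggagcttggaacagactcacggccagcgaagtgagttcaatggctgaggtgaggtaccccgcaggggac
RMRP: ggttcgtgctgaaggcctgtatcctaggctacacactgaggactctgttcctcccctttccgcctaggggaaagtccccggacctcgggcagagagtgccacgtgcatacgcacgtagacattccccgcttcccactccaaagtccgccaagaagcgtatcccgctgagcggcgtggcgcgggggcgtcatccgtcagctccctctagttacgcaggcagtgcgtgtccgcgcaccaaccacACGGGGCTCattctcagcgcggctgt
The rows are ENSG00000202198.1 for RN7SK, ENSG00000269900.2 for RMRP, ENSG00000270141.2 for TERC and ENSG00000259001.2 for RPPH1. This last row, named AL355075.4 in release 29, has a gene model of 638 bases, which spans RPPH1 on the same strand and runs beyond it. The annotation release behind the counts is not known, so the extent of the row as counted is not known either. Its reads cannot all be placed in the RNase P RNA itself.

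Libraries held 29880079 to 39716818 counts assigned to genes. RNU1-1, a U1 gene, stood at 54.2, 206 and 24.9 CPM (counts scaled to a fixed library total) in mutant JVM3, HG3 and MEC1 cells, against 40.3, 29.1 and 12.9 in wild-type cells of the same lines. These counts do not tell mutant from wild-type U1 sequence. Of the B cell genes, MS4A1, CD79A, CD79B, PAX5, CD22 and FCER2 were read in every library at 54.98 CPM or more, while CD5 was at 0.44 CPM or less in JVM3 and MEC1. Genes of T cells (4), myeloid cells (5), epithelium (5) and fibroblasts (5) summed to 0.279 to 10.2 CPM in mutant groups and 0.303 to 16 CPM in wild-type groups, and CD3G was at 0 throughout. Among the epithelial genes, CDH1 was lower in mutant than in wild-type cells of each line (6.4 against 10.1 CPM in JVM3, 1.65 against 4.19 in HG3 and 4.99 against 14.1 in MEC1). The part of these marker levels in the results was not tested.

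The 4 RNAs together took 4.69% to 6.56% of all counts assigned to genes. Their summed share was 6.4% and 6.27% in mutant JVM3 libraries, against 5.86% and 6.05% in wild-type ones. In HG3 it was 5% and 5.13% in mutant libraries, against 4.76% and 4.69% in wild-type ones. In MEC1 it was 6.24% and 5.86% in mutant libraries, against 6.56% and 6.03% in wild-type ones. Mutant libraries were thus higher without overlap in JVM3 and HG3, and the groups overlapped in MEC1. Among single tested genes, 57.4% in JVM3 and 63.8% in HG3 had groups without overlap, in either direction. As a share of all entries, which adds reads outside genes and reads that did not align uniquely, the order in HG3 turned round. Mutant HG3 libraries then stood at 2.17% and 2.16%, against 2.19% and 2.19% for wild type. With 3 lines an exact sign-flip test cannot go below p = 0.25, so no test was made of these shares. RN7SK was the most counted gene of every JVM3 and MEC1 library and the second in HG3. RPPH1 ranked 4 to 6 and RMRP 5 to 7, whereas TERC ranked 2314 to 7098. Intervals from counting alone were narrow (exact 95% Clopper-Pearson interval of 4.05% to 4.06% for RN7SK in mutant JVM3 replicate 1) and do not cover preparation of the library. Fewer cells with an RNA and less of it per cell cannot be told apart in these bulk samples.

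**Figure D1:**
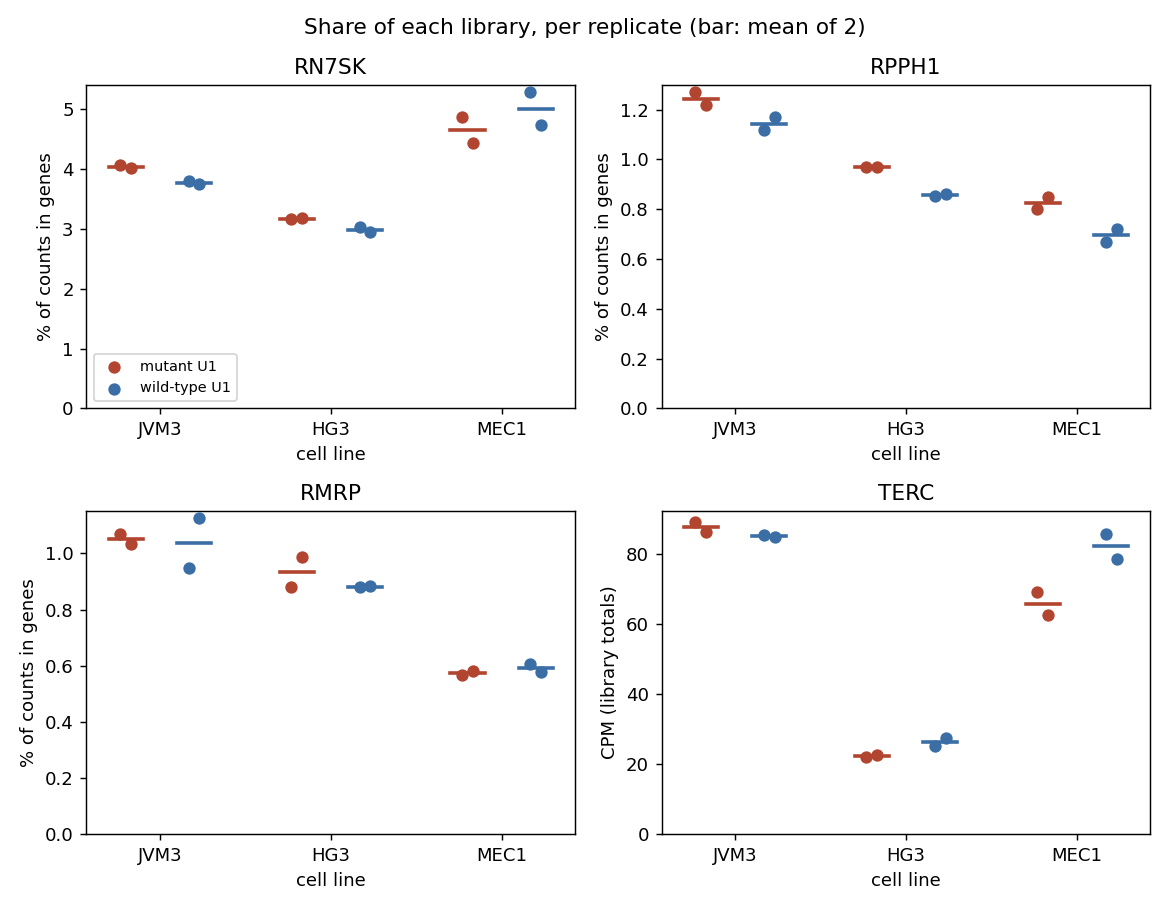
Share of each library taken by RN7SK, RPPH1 and RMRP (percent of counts assigned to genes) and level of TERC (CPM on library totals), for mutant (red) and wild-type (blue) libraries of 3 lines. Points are the 2 technical replicates and bars their mean. RPPH1 is higher in mutant libraries of every line, and TERC is lowest in HG3.

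Across the 3 lines, none of the 4 RNAs passed edgeR's quasi-likelihood test between mutant and wild-type cells (Benjamini-Hochberg adjusted p under 0.05 over all genes tested), in a comparison that called 3.94% of 22829 genes. By edgeR 0 of the 4 had an unadjusted p under 0.05, and DESeq2 called 0, with 1 at an unadjusted p under 0.05. Within lines, where the spread is that between technical replicates, 1 of 4 passed in JVM3 (22.4% of genes called), 2 of 4 in HG3 (38.3%) and 2 of 4 in MEC1 (36.6%).

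RPPH1 was slightly higher in mutant cells of each line. In JVM3 it took 1.27% and 1.22% of gene counts in mutant libraries, against 1.12% and 1.17% in wild-type ones. In HG3 the shares were 0.967% and 0.971% in mutant libraries and 0.851% and 0.862% in wild-type ones. In MEC1 they were 0.802% and 0.849% in mutant libraries and 0.67% and 0.72% in wild-type ones. Mutant libraries thus lay above wild-type ones without overlap in 3 of 3 lines, as 9.26% of all tested genes did. RPPH1 rose within each line by edgeR, with log2 fold changes of 0.14 in JVM3 (adjusted p = 0.00102), 0.18 in HG3 (adjusted p = 1.89e-05) and 0.19 in MEC1 (adjusted p = 1.57e-05). Across lines the log2 fold change was 0.17 (SE 0.01, 3 lines, edgeR adjusted p = 0.368), or 1.12-fold, which did not pass. The responses of the lines were not shown to differ (edgeR adjusted p = 0.69). Without wild-type replicate 1 of JVM3, RPPH1 did not pass in that line (edgeR adjusted p = 0.0558, log2 fold change 0.1). PARP2, a DNA repair enzyme gene next to RPPH1, had a log2 fold change of -0.04 across lines (edgeR adjusted p = 0.895). Within lines PARP2 stood at -0.06 in JVM3 (edgeR adjusted p = 0.642), fell by 0.25 in HG3 (0.00196) and rose by 0.2 in MEC1 (0.00496). GSTA4, next to RN7SK, had -0.84 across lines (edgeR adjusted p = 0.0691). GSTA4 fell in JVM3 (-0.78, edgeR adjusted p = 0.0025) and MEC1 (-0.92, 0.00155), and was at 0.0758 CPM in wild-type HG3. CILK1, also next to RN7SK, rose by 0.61 in HG3 (edgeR adjusted p = 9.95e-11) and fell by 0.28 in MEC1 (0.00433). SIT1, next to RMRP, fell by 0.69 in HG3 (edgeR adjusted p = 1.08e-09).

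TERC fell in mutant cells of both HG3 and MEC1. Its HG3 level was 22 and 22.5 CPM in mutant libraries, against 25.2 and 27.4 CPM in wild-type ones. In MEC1 it stood at 69.1 and 62.5 CPM in mutant libraries, against 85.7 and 78.6 CPM in wild-type ones. In JVM3 the values were 89 and 86.2 CPM in mutant libraries and 85.5 and 84.9 CPM in wild-type ones. The groups did not overlap in any line, with mutant libraries on the low side in HG3 and MEC1 and on the high side in JVM3. Groups that did not overlap were common, at 57.4% of tested genes in JVM3, 63.8% in HG3 and 59.5% in MEC1. By edgeR the log2 fold change was -0.23 in HG3 (adjusted p = 0.00354), -0.38 in MEC1 (adjusted p = 3.47e-08) and 0.06 in JVM3 (adjusted p = 0.419). The mutant effect on TERC differed between the lines (edgeR adjusted p = 7.62e-06), in a test that called 32% of genes. Across lines the log2 fold change was -0.18 (SE 0.13, 3 lines, edgeR adjusted p = 0.333). Without wild-type replicate 2 of HG3 the fall in that line did not pass (edgeR adjusted p = 0.0674, log2 fold change -0.18).

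RN7SK had estimates of opposite sign in the lines and passed in none by edgeR. In JVM3 it took 4.05% and 4.01% of gene counts in mutant libraries, against 3.79% and 3.75% in wild-type ones. In HG3 the shares were 3.15% and 3.17% in mutant libraries and 3.03% and 2.94% in wild-type ones. In MEC1 they were 4.87% and 4.42% in mutant libraries and 5.28% and 4.72% in wild-type ones. The groups did not overlap in JVM3 and HG3, and in MEC1 they did. Such a lack of overlap was seen for 57.4% of tested genes in JVM3 and 63.8% in HG3. The log2 fold changes by edgeR were 0.12 in JVM3 (adjusted p = 0.26), 0.09 in HG3 (0.337) and -0.17 in MEC1 (0.0931), and the difference between lines had an adjusted p of 0.0893. Across lines the value was 0.01 (SE 0.09, edgeR adjusted p = 0.977). As a share of all entries, RN7SK was lower in mutant HG3 libraries (1.35% against 1.38% in wild type, means of 2). The fit shares 1 estimate of the spread among lines, and the replicates of MEC1 were further apart (ratios, after edgeR's TMM scaling of libraries, of 1.11 in mutant and 1.12 in wild-type cells) than those of the JVM3 groups (1 each to 3 digits). With only the 4 libraries of a line in the fit, RN7SK passed in JVM3 (edgeR adjusted p = 3.5e-08) and HG3 (0.00441). In MEC1 it passed without mutant replicate 1 (edgeR adjusted p = 0.0208), without wild-type replicate 2 (0.000989) and with DESeq2 (0.0168). With no filter on low counts, RN7SK passed in JVM3 (edgeR adjusted p = 0.000578) and MEC1 (5.14e-07), and the difference between lines had an adjusted p of 1.47e-10. The difference between lines passed without mutant replicate 1 (0.021), wild-type replicate 1 (0.0441) or wild-type replicate 2 (0.000583) of MEC1, and JVM3 passed without wild-type replicate 1 (0.0318) or 2 (0.0307) of MEC1, all by edgeR.

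RMRP did not pass in any line. In JVM3 it took 1.07% and 1.03% of gene counts in mutant libraries, against 0.948% and 1.12% in wild-type ones. In HG3 the shares were 0.879% and 0.986% in mutant libraries and 0.88% and 0.884% in wild-type ones. In MEC1 they were 0.568% and 0.583% in mutant libraries and 0.605% and 0.579% in wild-type ones. The groups overlapped in every line, and the replicates of wild-type JVM3 were 1.2-fold apart after TMM scaling. By edgeR the log2 fold changes were 0.04 in JVM3 (adjusted p = 0.816), 0.09 in HG3 (0.53) and -0.1 in MEC1 (0.473). Leaving out wild-type replicate 1 of JVM3 gave -0.08 in that line (edgeR adjusted p = 0.35). Leaving out wild-type replicate 2 gave 0.18 (0.0243), and the difference between lines then had an adjusted p of 0.00878 by edgeR. RMRP in JVM3 thus rests on which wild-type replicate is used.

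**Figure D2:**
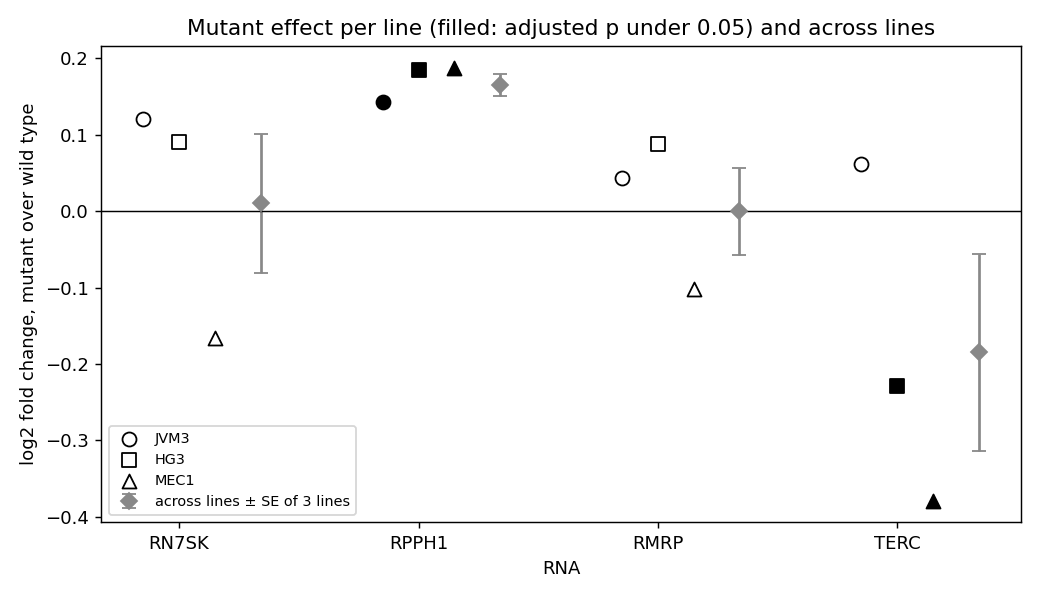
Log2 fold change of mutant over wild type for 4 RNAs in JVM3 (circles), HG3 (squares) and MEC1 (triangles), filled where edgeR's adjusted p was under 0.05, and across lines (diamonds, with the SE of the 3 lines). RPPH1 lies at 0.14 to 0.19 in every line, while TERC runs from 0.06 in JVM3 to -0.38 in MEC1.

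Levels of these RNAs also differed between the lines. Between wild-type lines all 4 RNAs passed in all 3 pairings by edgeR, where 63.4% (HG3 over JVM3), 71.8% (MEC1 over JVM3) and 67.5% (MEC1 over HG3) of genes were called. By direction, 30.9% of genes were higher and 32.5% lower for HG3 over JVM3, 33.9% and 37.9% for MEC1 over JVM3, and 32.1% and 35.3% for MEC1 over HG3. TERC was highest in JVM3 and lowest in HG3, with log2 fold changes of -1.79 for HG3 over JVM3 (edgeR adjusted p = 1.78e-29), 1.56 for MEC1 over HG3 (2.73e-27) and -0.23 for MEC1 over JVM3 (7.74e-05). That last difference, between neighbours in the order, did not pass when libraries were scaled by their totals alone (-0.05, edgeR adjusted p = 0.351). RN7SK was also lowest in HG3 and highest in MEC1, with -0.43 for HG3 over JVM3 (edgeR adjusted p = 0.00089), 0.23 for MEC1 over JVM3 (0.0142) and 0.66 for MEC1 over HG3 (7.25e-05). Without wild-type replicate 1 or 2 of JVM3, MEC1 over JVM3 did not pass for RN7SK (edgeR adjusted p = 0.0673 and 0.066).

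The 2 enzyme RNAs had another order, highest in JVM3 and lowest in MEC1. RMRP had log2 fold changes of -0.98 for MEC1 over JVM3 (edgeR adjusted p = 6.53e-05), -0.66 for MEC1 over HG3 (0.000631) and -0.32 for HG3 over JVM3 (0.0199). The last did not pass without wild-type replicate 1 or 2 of HG3 (edgeR adjusted p = 0.0829 and 0.0775), with scaling by totals (0.0574) or with no filter on low counts (0.0533). RPPH1 had -0.89 for MEC1 over JVM3 (edgeR adjusted p = 3.44e-21), -0.51 for HG3 over JVM3 (7.67e-15) and -0.39 for MEC1 over HG3 (4.11e-12). These p-values again measure the spread between technical replicates.

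**Figure D3:**
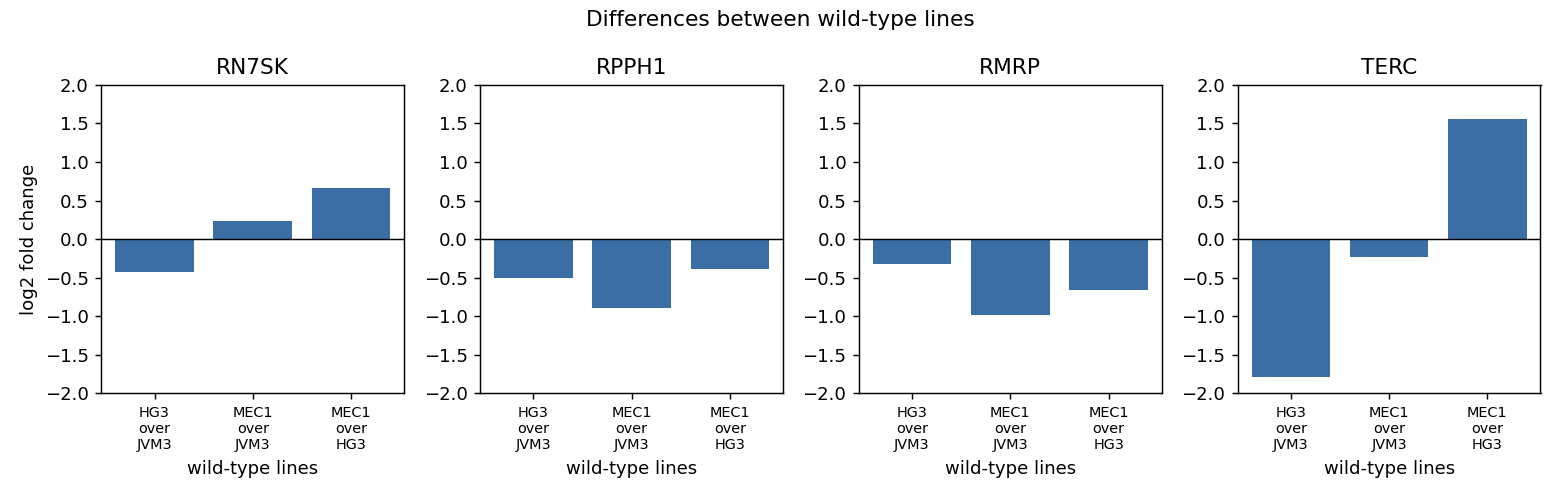
Log2 fold changes between wild-type lines by edgeR for 4 RNAs, as bars from 0, for HG3 over JVM3, MEC1 over JVM3 and MEC1 over HG3. TERC differs most, at -1.79 for HG3 over JVM3, and RPPH1 and RMRP are lower in MEC1 than in JVM3.

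Set against length, RN7SK remained far above the others. Its level per kilobase of RNA was 122991 CPM in mutant and 114878 CPM in wild-type JVM3 cells, 96434 and 90975 in HG3, and 141638 and 152444 in MEC1 (means of 2). RMRP, over the shorter of its gene models in release 29 (264 bases, against the 268 shown above), stood at 39837 CPM per kilobase in mutant and 39247 in wild-type JVM3 cells, 35315 and 33399.5 in HG3, and 21789 and 22425 in MEC1. RPPH1 stood at 37320 in mutant and 34330 in wild-type JVM3 cells over the 333 bases of the RNA. Over the 638 bases of its row's gene model in release 29, RPPH1 stood at 19479 and 17919. In MEC1, RPPH1 stood at 24786 in mutant and 20866 in wild-type cells over the RNA and at 12937 and 10891 over that gene model. RPPH1 was thus above RMRP per length only in mutant MEC1 cells and over the RNA, among the MEC1 values. TERC stood at 162 CPM per kilobase in mutant and 158 in wild-type JVM3 cells, 41.2 and 48.6 in HG3 cells, and 122 and 152 in MEC1 cells.

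Of the proteins that work with 7SK, none passed across lines. The list held 7 genes of the 7SK particle and of P-TEFb, all tested, with a median log2 fold change of 0.17 against -0.01 for all genes tested, and 3 had an unadjusted p under 0.05 by edgeR. CDK9, the kinase of P-TEFb, had the lowest p, with a log2 fold change of 0.35 (SE 0.05, edgeR adjusted p = 0.0538) and 57.4 ± 16.7 CPM in mutant against 44.7 ± 12.9 CPM in wild-type cells (SD, n = 3 lines). CDK9 passed with DESeq2 (adjusted p = 0.0198) and, by edgeR, without mutant replicate 1 of HG3 (0.041) or its wild-type replicate 1 (0.0463), with no filter on low counts (0.0248) and with the libraries unsummed (2.41e-05). Within lines, 4 of the 7 rose and 1 fell in JVM3 (10.4% and 12% of all genes), 3 rose and 2 fell in HG3 (18.7% and 19.6%), and 4 rose and 0 fell in MEC1 (18% and 18.6%), by edgeR. CDK9 rose in each line, by 0.45 in JVM3, 0.28 in HG3 and 0.32 in MEC1 on the log2 scale (edgeR adjusted p = 1.47e-08, 2.79e-05 and 1.16e-06).

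Of 11 protein genes of RNase P and RNase MRP, 0 passed across lines by edgeR, with 2 at an unadjusted p under 0.05 and a median log2 fold change of -0.01. POP5, a subunit of both enzymes, had the lowest p (-0.26, SE 0.04, edgeR adjusted p = 0.13) at 26.9 ± 7.65 CPM in mutant and 31.7 ± 7.72 CPM in wild-type cells (SD, n = 3 lines). Of 11 telomerase genes 0 passed by edgeR, with 4 at an unadjusted p under 0.05 and a median of -0.1. NOP10, an H/ACA protein that binds the telomerase RNA, had the lowest p (0.29, SE 0.04, edgeR adjusted p = 0.0718) at 97.1 ± 26.6 CPM in mutant and 77.6 ± 16 CPM in wild-type cells (SD, n = 3 lines). DESeq2 called NOP10 (adjusted p = 0.0312), which did not pass under 19 of 22 alternatives. TERT, the catalytic subunit, is named here after its values were seen. Its level was 1.89 CPM in mutant and 2.97 CPM in wild-type JVM3 cells, 2.71 and 5.04 CPM in HG3, and 12.6 and 9.62 CPM in MEC1 cells. It fell by 0.63 in JVM3 and 0.89 in HG3 and rose by 0.33 in MEC1 on the log2 scale (edgeR adjusted p = 0.00203, 7.94e-07 and 0.00875). Its response differed between the lines (edgeR adjusted p = 1.67e-07), in a test that called 32% of genes. Across lines TERT did not pass (-0.37, SE 0.37, edgeR adjusted p = 0.431).

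Of 8 genes of the signal recognition particle and its receptor, the proteins that work with 7SL, 0 passed across lines by edgeR and 0 had an unadjusted p under 0.05. Their median log2 fold change was -0.06. SRP54, the subunit that binds signal peptides, had the lowest p (-0.11, SE 0.05, edgeR adjusted p = 0.493) at 92.9 ± 6.19 CPM in mutant and 99 ± 3.83 CPM in wild-type cells (SD, n = 3 lines). Within MEC1, 5 of the 8 fell and 1 rose (18.6% and 18% of all genes), within HG3 1 fell (19.6%), and within JVM3 1 rose (10.4%).

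Of 13 subunits of RNA polymerase III, 0 passed across lines by edgeR, with 3 at an unadjusted p under 0.05 and a median of 0.04. POLR1C, a subunit shared with RNA polymerase I, had the lowest p (0.22, SE 0.08, edgeR adjusted p = 0.207) at 41.5 ± 10.3 CPM in mutant and 34.9 ± 6.2 CPM in wild-type cells (SD, n = 3 lines). Of 19 transcription factors of this polymerase 1 rose and 1 fell across lines (1.93% and 2.01% of all genes), with a median of 0.11. ZNF143, an activator of small nuclear RNA genes, rose by 0.46 on the log2 scale (SE 0.07, edgeR adjusted p = 0.0308), to 37.1 ± 1.1 CPM in mutant against 26.8 ± 1.89 CPM in wild-type cells (SD, n = 3 lines). GTF3C3, a subunit of TFIIIC, fell by 0.47 (SE 0.06, edgeR adjusted p = 0.0206), to 62 ± 1.66 CPM in mutant against 84.9 ± 2.31 CPM in wild-type cells (SD, n = 3 lines). Both had the same direction in 3 of 3 lines. GTF3C3 did not pass without JVM3 (edgeR adjusted p = 0.0639) or MEC1 (0.0679), nor ZNF143 without HG3 (0.0854) or JVM3 (0.087), where 2 lines are left.

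Of 8 genes for binding and decay of such RNAs, 0 passed across lines by edgeR and 0 had an unadjusted p under 0.05, with a median of -0.04. RO60, which encodes the Ro protein of Y RNAs, had the lowest p (-0.17, SE 0.08, edgeR adjusted p = 0.302) at 159 ± 22.7 CPM in mutant and 176 ± 17.2 CPM in wild-type cells (SD, n = 3 lines). Of 25 other structured RNAs, among them Y, vault and minor spliceosome RNAs, 19 were tested across lines and 0 passed by edgeR. Of these 4 had an unadjusted p under 0.05, and the median was -0.05. RNU5D-1, a U5 gene, had the lowest p (-0.55, SE 0.18, edgeR adjusted p = 0.102) at 3.96 ± 0.853 CPM in mutant and 5.8 ± 1.5 CPM in wild-type cells (SD, n = 3 lines). Several of these RNAs have near-identical copies in the genome, so their unique counts are uncertain.

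**Figure D4:**
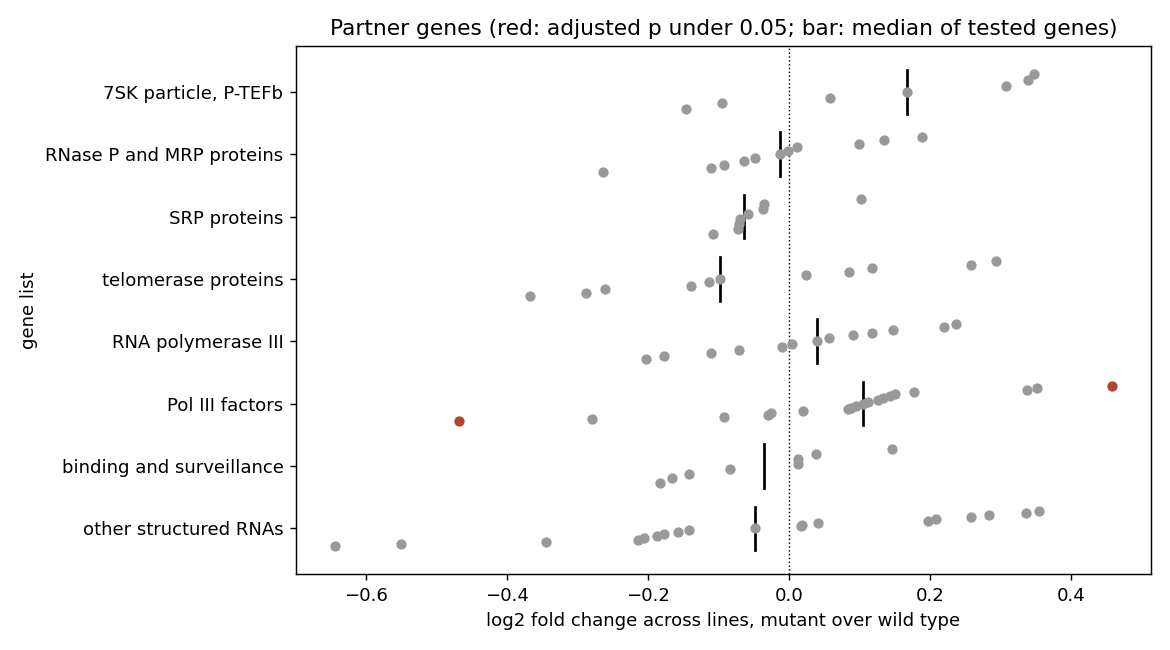
Log2 fold change across lines, mutant over wild type, for each tested gene of 8 lists, 1 row per list. Red points have edgeR's adjusted p under 0.05 and bars are medians. Only ZNF143 (0.46) and GTF3C3 (-0.47), in the row of polymerase III factors, are red.

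Pseudogenes of 7SL, partial or diverged copies scattered through the genome, had mostly positive log2 fold changes of mutant over wild type, a shift whose size depended on which libraries were used. Of 602 listed, 284 were tested across lines, and 241 (84.9%) had a log2 fold change above 0, against 47.8% of all genes tested. Their median was 0.51, against -0.01 for all genes tested, and 8 rose and 0 fell by edgeR (1.93% and 2.01% of all genes). Within lines 193 of 245 tested were higher in JVM3, 176 in HG3 and 214 in MEC1. Counts were low, with a median of 156.5 over all 12 libraries. The genes that rose with the lowest p were RN7SL434P (log2 fold change 1.82, edgeR adjusted p = 0.0151), RN7SL143P (1.79, 0.0167), RN7SL665P (0.72, 0.0317) and RN7SL397P (1.48, 0.0388). Their mean levels were 1.83 ± 0.891, 0.86 ± 0.619, 6.85 ± 3.16 and 0.692 ± 0.553 CPM in mutant cells, against 0.488 ± 0.111, 0.251 ± 0.215, 4.12 ± 1.92 and 0.235 ± 0.152 CPM in wild-type cells (SD, n = 3 lines). RN7SL143P did not pass without mutant replicate 1 of MEC1 (edgeR adjusted p = 0.267), nor did RN7SL397P (0.142) or RN7SL665P (0.796). Over all alternatives RN7SL143P lost its call under 2, RN7SL397P under 8 and RN7SL665P under 9, whereas RN7SL434P passed under all 22 alternatives (at most 0.0323).

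Within a line, the median of these pseudogenes moved with single libraries. Without mutant replicate 1 of the line, the log2 fold changes had a median of -0.03 in JVM3 (133 of 281 above 0), 0.00237 in HG3 (150 of 296) and -0.36 in MEC1 (77 of 252), so that it was near 0 in JVM3 and HG3 and turned round in MEC1. In HG3 it was also near 0 without wild-type replicate 2 (0.06, 155 of 296). It was larger without mutant replicate 2 of JVM3 (1.05), wild-type replicate 1 of HG3 (0.82), mutant replicate 2 of MEC1 (1.18) or wild-type replicate 1 of MEC1 (1.21). Across lines the median lay between 0.16 and 0.7 over the 12 libraries left out in turn. Leaving out mutant replicate 1 of MEC1 gave the lowest, with 177 of 265 above 0 and 1 that rose. The number that rose was also lower without wild-type replicate 2 of MEC1 (2), mutant replicate 1 of JVM3 (3), wild-type replicate 1 of JVM3 (4) or wild-type replicate 2 of HG3 (4). It was higher without mutant replicate 2 (13) or wild-type replicate 2 (15) of JVM3, mutant replicate 2 (17) or wild-type replicate 1 (20) of HG3, or mutant replicate 2 of MEC1 (18). It was 2 without JVM3, 2 without MEC1, 3 with scaling by totals, 13 with the libraries unsummed and 38 with no filter on low counts. In the unsummed fit 2 fell.

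The summed share of these pseudogenes differed widely between the replicates of several groups. It was 0.0657% and 0.04% of gene counts in mutant JVM3 libraries, against 0.0398% and 0.042% in wild-type ones. HG3 had 0.0542% and 0.0407% in mutant libraries and 0.0752% and 0.0247% in wild-type ones. In MEC1 it was 0.0803% and 0.0362% in mutant libraries and 0.08% and 0.0352% in wild-type ones. The summed shares overlapped between the U1 states in every line. These copies resemble 7SL, and which RNA their reads came from was not tested. Of 289 pseudogenes of 7SK, 69 were tested, 37 were above 0 and the median was 0.06. Of all genes tested, 47.8% were above 0. RN7SKP173 was the 1 that rose, in a comparison that called 1.93% of all genes higher. Its log2 fold change was 1.45 (SE 0.11, edgeR adjusted p = 0.0116), with 1.91 ± 0.28 CPM in mutant against 0.693 ± 0.0977 CPM in wild-type cells (SD, n = 3 lines).

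**Figure D5:**
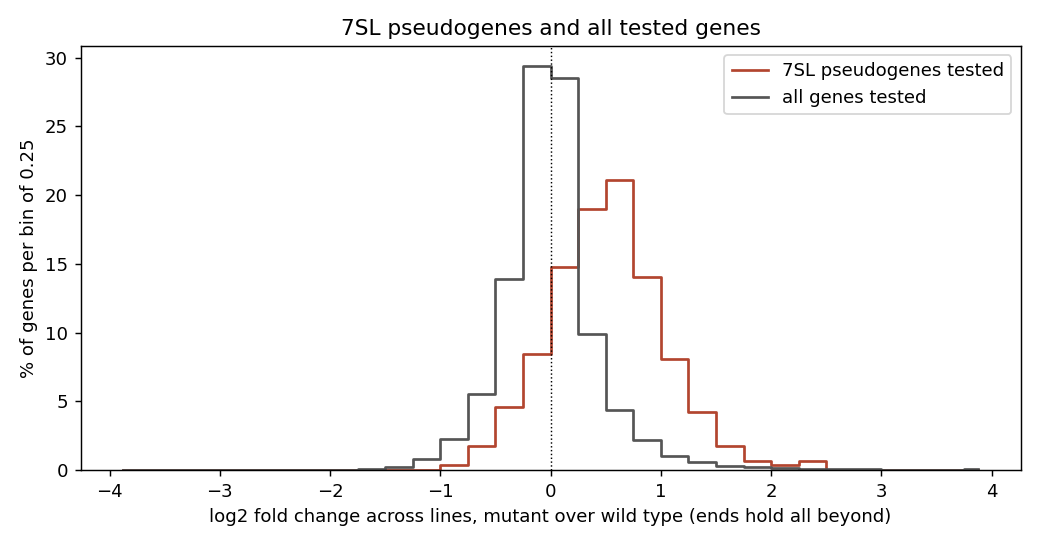
Distribution of log2 fold changes across lines, mutant over wild type, for 284 tested pseudogenes of 7SL (red) and all 22829 tested genes (grey), in percent of genes per bin of 0.25. The pseudogenes centre on a median of 0.51 and all genes on -0.01.

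The genes whose levels followed each RNA most closely over the 12 libraries were taken as the 2 with the highest Pearson correlation of log2 CPM. For TERC these were TRIB3, a stress-induced pseudokinase gene (r = 0.995), and ATP13A3-DT (r = 0.994). For RPPH1 they were ZNF264 (r = 0.994) and CD86, a costimulatory ligand gene (r = 0.993). For RMRP they were XXYLT1-AS2 (r = 0.991) and AL033504.1 (r = 0.99). For RN7SK they were MATN1-AS1 (r = 0.98) and VHL, a ubiquitin ligase subunit gene (r = 0.975). These values describe 12 libraries that are pairs of technical replicates of 6 groups in 3 lines. Replicates and lines are shared among the points. The genes were picked as the highest of all tested genes, so high values of r come with the choice. Levels over the libraries were low for AL033504.1 (0 to 1.09 CPM) and ATP13A3-DT (0.185 to 6.85 CPM).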

How the data were processed

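RNA was sequenced in 12 libraries of 3 cell lines. Libraries were stranded and ribosome-depleted, from Trizol-extracted total RNA, per the labels' protocols. The submitters' processing notes name STAR 2.5.4b and HTSeq 0.9.1, with hg19 and GRCh37. No source used here gives the strand setting or annotation release. The authors deposited raw counts for each gene. Library sizes left out reads outside genes (17.7% to 24.9% of entries), those not aligned uniquely (29% to 34.9%) and ambiguous ones (0.897% to 1.06%). Replicates differed by more than counting noise (mean chi-square per gene 2.27 to 5.29). Splice junction counts were not used.

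A row was taken as a member when its ID's GENCODE 29 gene covered at least 80% of the member's gene on the same strand. No coordinates were converted. Testing used edgeR 4.0.16 in R 4.3.3 (robust quasi-likelihood, TMM, filterByExpr), with Benjamini-Hochberg adjustment over all genes tested. Across lines, the fit held 6 libraries of summed replicates, blocked by line. Within lines and between wild-type lines, 12 libraries were fitted as 6 groups. SEs are those of the 3 lines' values, and CPM for correlations had a prior count of 2. DESeq2 1.42.0, other scalings, no filter, a replicate block and left-out libraries and lines were alternatives. The fits were tested on simulated data. Of each list, genes past the threshold were named (at most 4), or the one with the lowest p. RNase P, telomerase and the other lists, and the members, were chosen with earlier results of these data known.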

Additional observations from a re-analysis of the deposited data

Results flagged for a closer look

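TERC was flagged because its response to mutant U1 differed between the lines, in a test that called 32% of all genes. The test of that difference gave an adjusted p of 7.62e-06 by edgeR, where the log2 fold change was 0.06 for JVM3, -0.23 for HG3 and -0.38 for MEC1. The spread behind this p is that of technical replicates. Over the 17 alternatives of this test the adjusted p ran from 5.79e-10 to 0.000191.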

How the results depend on the processing

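With 3 lines, the test across them has few degrees of freedom. Across lines the 900 genes called became 6540 with the 12 libraries unsummed, 589 with scaling by totals, 2540 with no filter on low counts, and 411, 478 and 483 without JVM3, HG3 or MEC1. With the replicate block on 12 libraries they became 6409. Technical replicates count as independent in the unsummed fits, where RPPH1 passed (0.17, adjusted p = 0.00384, and 0.17, adjusted p = 0.00554 with the replicate block) and TERC passed without the block (-0.18, adjusted p = 0.0409), all by edgeR. The differences between replicates 1 and 2 correlated at 0.0171 to 0.187 between groups, all 15 above 0 and 9 above 0.1. The labels do not say what a number shares, so the block was kept as an alternative. The replicate block raised the genes called to 5663 from 4767 in JVM3, 8820 from 8145 in HG3 and 8546 from 7776 in MEC1. With the replicate block across lines, 35 pseudogenes of 7SL rose and 2 fell, of 210 tested, where 6409 of 20441 genes were called. CDK9 passed in that fit (adjusted p = 5.15e-05 by edgeR). The summed share was higher in replicate 1 in 5 of 6 groups for 7SL pseudogenes and 6 of 6 for 7SK pseudogenes.

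Near 0, signs across lines turned without a call. RMRP had log2 fold changes of 0.0114 unsummed, 0.0115 with the replicate block, 0.0150 with scaling by totals and 0.0664 without MEC1, and -0.0348 to 0.0525 over the libraries left out in turn. RN7SK had -0.000627 with DESeq2, -0.00862 with no filter on low counts, -0.0220 without HG3 and -0.0433 without JVM3, and -0.0233 to 0.0459 over the libraries left out. RPPH1 kept its sign across lines in 22 alternatives (0.15 to 0.19), as did TERC (-0.31 to -0.07). PARP2 had 0.0740 without HG3. With single libraries left out, RMRP ran from -0.00862 to 0.159 in HG3 and from -0.0793 to 0.180 in JVM3.

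As a share of all entries, the summed ratio of mutant over wild type was 0.991 in HG3, against 1.07 for gene counts, and 1.1 in JVM3, against 1.06. Leaving out 1 library gave 1.05 to 1.08 in JVM3, 1.06 to 1.09 in HG3 and 0.922 to 1 in MEC1. The cause of these changes was not tested.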

Other observations

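Of the 3 IDs with the most counts over all libraries, the second and the third carried no name in the tables used here. Whether they are rows of RN7SL1 and RN7SL2 could not be checked with the annotation used here. ENSG00000258486.2 took 3.69% and 3.54% of gene counts in mutant JVM3 libraries, against 3.1% and 3.15% in wild-type ones. In HG3 it took 3.59% and 3.8% in mutant and 3.31% and 3.12% in wild-type libraries, and in MEC1 3.56% and 3.15% in mutant and 2.93% and 3.05% in wild-type libraries. Mutant libraries were higher without overlap in 3 of 3 lines, as in 9.26% of all tested genes. ENSG00000265150.1 took 1.87% and 1.99% in mutant and 1.62% and 1.7% in wild-type JVM3 libraries. In HG3 it took 1.94% and 1.97% in mutant and 1.78% and 2.06% in wild-type libraries, and in MEC1 2.04% and 2.37% in mutant and 1.96% and 2.06% in wild-type libraries.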
